A study of Homo sapiens with 20 samples.

Results

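Histone deacetylases and histone acetyltransferases set the acetylation of lysines on histones and on many other proteins, and this account follows their mRNAs, with that of the corepressor NCOR1, through HepaRG differentiation. HepaRG is an established human liver tumour cell line whose progenitors, once confluent, form hepatocyte-like and biliary-like cells. The members were a list of 33 gene symbols, 18 deacetylases, 14 acetyltransferases and NCOR1. They were listed by gene name, with no threshold on level, but with earlier results of these data known. Of these, 32 were found on the array through the accession of a probe, out of 35372 genes or transcripts with a probe. No probe accession led to KAT6A, which was therefore not analysed here. HDAC9 was well above background on 1 of the 4 D4 arrays and on none of the other 16, and was not tested. The remaining 31 genes, 17 deacetylases, 13 acetyltransferases and NCOR1, were tested.

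RNA was measured on one-colour Agilent human arrays, 4 per condition, in 5 conditions. D4 and D15 cells were grown for 4 and 15 days without DMSO. D30 − DMSO cells were kept without DMSO to day 30, and D30 + DMSO cells received 2% DMSO from day 15 to day 30. D34 ± DMSO cells had the same DMSO exposure and were then cultured for 4 days after its removal. All cultures shared a medium with 10% serum, 5 µg/ml insulin, 50 µM hydrocortisone and the antibiotics penicillin and streptomycin, so no comparison bears on these. The line derives from 1 tumour. The study's methods describe the 4 replicates as independent biological ones. The p-values measure the spread between arrays of that 1 line, which holds differences between repeated cultures and any between slides.

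Replicate arrays correlated across genes at 0.955 to 0.992, and 61.1 to 74.2% of the spots of an array were well above background. Arrays of the same slide deviated together from their condition means (44 pairs, median correlation 0.393), so slide may act as a batch. The fit had no slide term, and values with slide as a block or within a slide are given beside the called differences; slides 3 and 4 each held all 5 conditions. All 49 within-slide values of the called differences had the sign of the pooled one, as they must where the arrays compared do not overlap. The summed level of 10 proliferation markers was 80.3 to 95.9 times the 75th percentile of the array at D4, 23.0 to 32.7 at D15, 24.6 to 31.7 at D30 − DMSO, 17.5 to 21.8 at D30 + DMSO and 60.9 to 86.1 at D34 ± DMSO. The summed level of 10 hepatocyte markers was 147 to 304 at D4 and 1290 to 3290 in the other conditions, and 5 or 6 of the 9 biliary and progenitor markers on the array were well above background, EPCAM, CFTR and PROM1 on no array. Summed blood and endothelial markers were at 7.22 to 7.79 at D4 and at 10 to 15.9 in the other conditions, and 6 to 8 of the 10 were well above background. In bulk RNA, fewer cells of a type and less RNA per cell cannot be told apart.

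Zinc-dependent deacetylases fall into class I (HDAC1, HDAC2, HDAC3, HDAC8), largely nuclear and held in repressor complexes, class II and class IV (HDAC11), while the sirtuins consume NAD and work in the nucleus, cytoplasm and mitochondria. Acetyltransferases take the acetyl group from acetyl-CoA and include the GNAT enzymes KAT2A and KAT2B, the MYST family, the paralogues EP300 and CREBBP, and the nuclear receptor coactivators NCOA1 to NCOA3. In liver both kinds of enzyme act as cofactors of the transcription factors that control metabolism, and deacetylase inhibitors have been used to hold cultured hepatocytes in a differentiated state.

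The sequences just upstream of the start are shown for members called with DMSO or after its removal: KAT2B and HDAC3, called in both DMSO comparisons, SIRT1, called after its removal, SIRT4, called at D15 and with DMSO, and HDAC11, which went the other way. They are the 250 bases before the RefSeq transcription start (GRCh38.p14), 5′ to 3′ on the gene's strand. Capitals mark the GC box word GGGCGG and the cyclic AMP response element word TGACGTCA, each searched on both strands. The SIRT4 stretch is the one of its 2 annotated starts that lies further upstream.
KAT2B, chr3:20040196-20040445, plus strand: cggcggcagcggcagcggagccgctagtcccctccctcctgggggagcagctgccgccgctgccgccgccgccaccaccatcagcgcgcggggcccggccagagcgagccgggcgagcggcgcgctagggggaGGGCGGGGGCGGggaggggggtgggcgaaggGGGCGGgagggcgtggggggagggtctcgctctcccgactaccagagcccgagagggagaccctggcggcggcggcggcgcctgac
HDAC3, chr5:141636850-141637099, minus strand: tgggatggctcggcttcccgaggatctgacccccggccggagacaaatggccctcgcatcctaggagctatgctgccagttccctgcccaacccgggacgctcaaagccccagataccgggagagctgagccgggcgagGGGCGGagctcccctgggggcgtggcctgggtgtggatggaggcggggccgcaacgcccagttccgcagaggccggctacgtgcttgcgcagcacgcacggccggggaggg
SIRT1, chr10:67884406-67884655, plus strand: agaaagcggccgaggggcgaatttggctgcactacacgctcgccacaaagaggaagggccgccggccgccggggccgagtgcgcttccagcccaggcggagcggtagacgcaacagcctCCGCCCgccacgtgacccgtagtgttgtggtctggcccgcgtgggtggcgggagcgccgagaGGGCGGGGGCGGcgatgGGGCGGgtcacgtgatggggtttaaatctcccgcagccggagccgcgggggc
SIRT4, chr12:120291939-120292188, plus strand: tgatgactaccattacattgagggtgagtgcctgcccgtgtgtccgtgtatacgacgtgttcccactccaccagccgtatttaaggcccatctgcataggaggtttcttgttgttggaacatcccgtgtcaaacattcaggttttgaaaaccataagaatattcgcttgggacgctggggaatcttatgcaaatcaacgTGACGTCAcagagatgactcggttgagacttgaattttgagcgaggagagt
HDAC11, chr3:13480056-13480305, plus strand: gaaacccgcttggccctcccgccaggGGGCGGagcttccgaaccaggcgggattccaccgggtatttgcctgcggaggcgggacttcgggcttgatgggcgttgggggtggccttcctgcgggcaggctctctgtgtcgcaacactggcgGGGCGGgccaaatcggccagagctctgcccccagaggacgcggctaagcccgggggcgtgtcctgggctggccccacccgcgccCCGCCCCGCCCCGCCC

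KAT2B held 3 GC box words, HDAC3 1, SIRT1 4 and HDAC11 5, 3 of them within 16 bases of its start. GC content was 80.8% for KAT2B, 70.8% for HDAC3, 72.0% for SIRT1 and 73.6% for HDAC11, against 47.2% for the SIRT4 stretch, which held no GC box word and 1 response element word, 51 bases before the start. The other SIRT4 start, 39.6% GC, held neither word. The RefSeq table gave 48 windows, of 300 bases around the start, for 28 of the 33 members. The GC box word stood in 25 of the 48 windows (52.1%), from 17 members, and in 44.954% of all 35116 promoters, and the full response element word in 1 window (2.08%), of SIRT4, and in 1.848% of all promoters. The word CCAAT stood in 13 windows (27.1%), from 10 members, and in 34.614% of all promoters, and the E-box word CACGTG in 3 windows (6.25%), of HDAC4, KAT5 and SIRT1, and in 7.256%. A match is a description of the letters in these windows, not a site.

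A difference was called at 2 levels from 1 limma fit over 22069 genes: by the thresholds used in the study, over 2-fold with an adjusted p under 0.005, and by a wider rule, an adjusted p under 0.05 at any size. Levels are log2 values relative to the 75th percentile of the array, which is 0. By the wider rule 20 differences were called, in 12 members, 9 deacetylases and 3 acetyltransferases. The other 19 members were called in no comparison. Over the 5 conditions together, 0 of 31 passed the study's F-test thresholds (a Bonferroni p below 0.001 and more than 3-fold) in limma, where 5.41% of all genes did. KAT2B had the lowest Bonferroni p in limma, 0.00298, and its highest and lowest condition means differed by 1.43 on the log2 scale, and SIRT4 had the widest spread of a tested member (1.81).

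**Figure D1:**
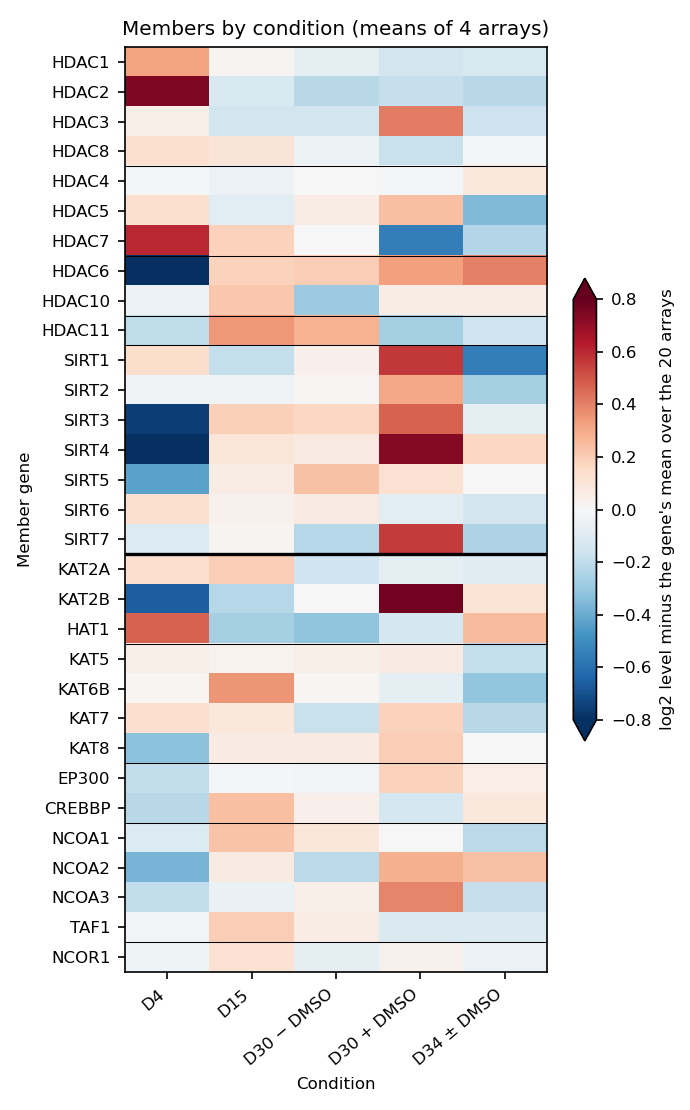
Mean log2 level of each of the 31 tested members (rows, deacetylases above the thick line, acetyltransferases and NCOR1 below it) in the 5 conditions (columns, 4 arrays each), as the difference from the gene's own mean over the 20 arrays; colours are clipped at 0.8. HDAC6, SIRT3 and SIRT4 were lowest at D4, HDAC2 and HAT1 highest at D4, and KAT2B, SIRT1, SIRT7 and HDAC3 highest at D30 + DMSO.

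Between proliferating D4 cells and confluent D15 cells, 8 of 31 members (25.8%) were called by the wider rule, 6 higher and 2 lower, against 23.8% of all genes (12.6% higher and 11.2% lower). The D4 and D15 arrays did not overlap in the same 8, as in 24.2% of all genes. HDAC6 and SIRT4 also passed the study's thresholds, as 9.54% of all genes did. Of the 17 deacetylases 4 rose and 1 fell (median log2 difference −0.03), and of the 13 acetyltransferases 2 rose and 1 fell (median 0.22), beside a median of 0.04 over all genes.

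HDAC6, a largely cytoplasmic deacetylase of tubulin, was at 0.45, −0.01, −0.07 and 0.67 on the log2 scale in the 4 D4 arrays and at 1.78, 1.32, 1.49 and 1.65 in the D15 arrays. All D15 arrays lay above all D4 arrays. The log2 difference was 1.30 ± 0.18 (SE, n = 4 per condition), or 2.46-fold, with a limma adjusted p of 2.2e-05, and a second, dimmer HDAC6 probe gave 0.90. Within slides 2, 3 and 4 the difference was 1.33, 1.38 and 0.90. HDAC6 stayed at this level thereafter, between 1.35 and 2.17 in all 12 later arrays.

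The mitochondrial sirtuins SIRT3 and SIRT4 rose at the same step. SIRT3, the main deacetylase of the mitochondrial matrix, was at 1.22, 1.04, 1.08 and 0.81 at D4 and at 2.04, 2.11, 1.98 and 1.78 at D15, a log2 difference of 0.94 ± 0.15 (1.92-fold, limma adjusted p = 7.33e-05). SIRT4, a mitochondrial sirtuin with weak deacetylase activity, was at −3.14, −2.99, −3.23 and −3.18 at D4 and at −1.94, −1.76, −2.26 and −1.88 at D15, a difference of 1.17 ± 0.22 (2.25-fold, limma adjusted p = 0.000597). In neither gene did the arrays of the conditions overlap, and within slides 2, 3 and 4 the difference was 0.82, 1.03 and 1.07 for SIRT3 and 1.19, 1.47 and 1.10 for SIRT4.

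HDAC2, a class I deacetylase of the SIN3, NuRD and CoREST complexes, and HAT1, which acetylates newly made histone H4 before it enters chromatin, were the 2 members that fell. HDAC2 was at 2.37, 2.51, 2.41 and 2.42 at D4 and at 0.99, 1.72, 1.88 and 1.64 at D15. It fell by 0.87 ± 0.16 on the log2 scale (1.82-fold, limma adjusted p = 0.000411), and by 1.37, 0.69 and 0.66 within slides 2, 3 and 4. HAT1 was at 2.58, 2.84, 2.81 and 2.78 at D4 and at 1.54, 2.23, 2.11 and 2.18 at D15. It fell by 0.74 ± 0.15 (1.67-fold, limma adjusted p = 0.000875), and by 1.04, 0.59 and 0.63 within the same slides; its D15 replicate 1 stood well below the other 3. All 10 proliferation markers fell between the same conditions, by a median of 2.41 on the log2 scale, and their part in these differences was not tested.

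Smaller increases were called for HDAC11 (0.55 ± 0.14, limma adjusted p = 0.0069), the only class IV deacetylase, KAT2B (0.43 ± 0.14, adjusted p = 0.0288), a coactivator acetyltransferase of the SAGA-type complexes, and KAT8 (0.39 ± 0.11, adjusted p = 0.0157), the histone H4 lysine acetyltransferase of the MSL and NSL complexes. In none of the 3 did the D4 and D15 arrays overlap, although within slides 2, 3 and 4 the difference was 0.18, 0.51 and 0.60 for HDAC11, 0.11, 0.51 and 0.46 for KAT2B and 0.46, 0.19 and 0.44 for KAT8. The KAT2B call was lost without D4 replicate 2 (adjusted p = 0.0904) or 3 (0.0671) and without D15 replicate 2 (0.06) or 4 (0.11), and the KAT8 call without D4 replicate 2 (0.0506). With only the 8 arrays compared, the adjusted p was 0.0507 for HDAC11, 0.117 for KAT2B and 0.083 for KAT8. With slide as a block 13 members were called, against 36.2% of all genes, and HDAC1 (−0.39), HDAC7 (−0.50), SIRT5 (0.64), CREBBP (0.60) and NCOA2 (0.69) joined the list. NCOA2 lay near background, well above it on 2 of the 4 D4 arrays and 3 of the 4 D15 arrays.

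**Figure D2:**
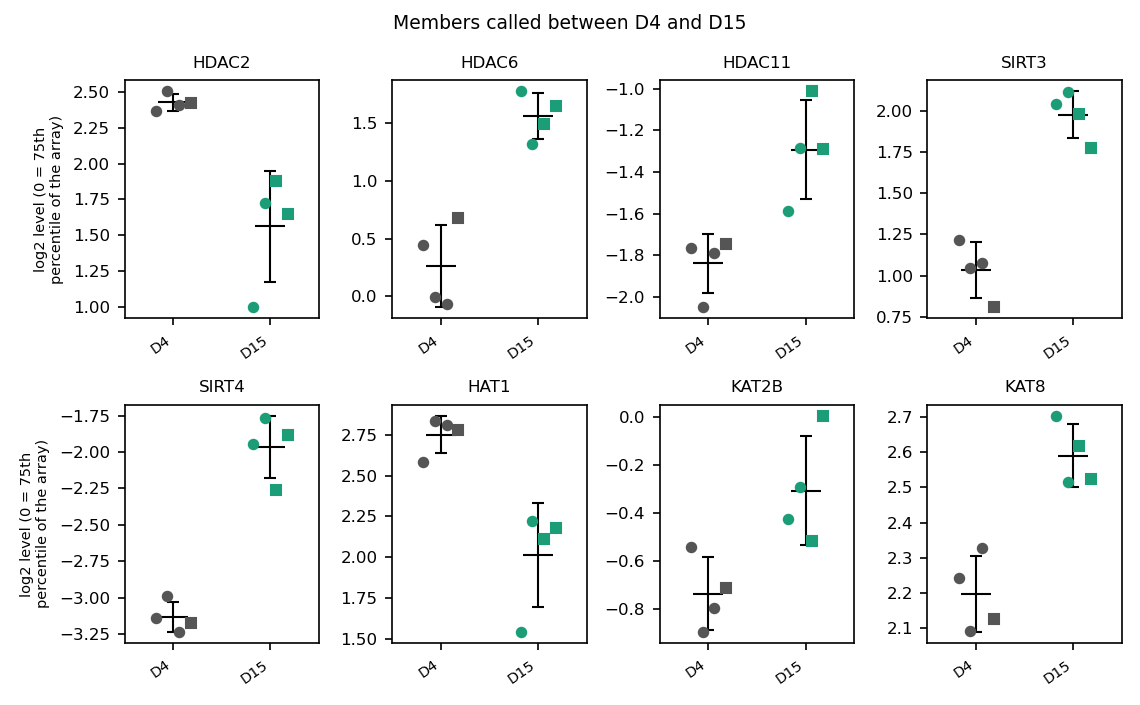
Log2 level (0 is the 75th percentile of the array) of the 8 members called between D4 and D15, 1 point per array, squares for slide 4 and circles for the other slides, with mean and SD of 4 arrays; each panel has its own vertical axis. In each of the 8 panels the D4 and D15 points do not overlap; HDAC2 and HAT1 are the 2 that fell.

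The 15 further days without DMSO, from D15 to D30 − DMSO, brought no call among the members. By the wider rule 0 of 31 were called in limma, where 0.0453% of all genes (10 genes) were called, and 0 had an unadjusted p below 0.05. The methods' t-test called 0 of the 22069 genes. None passed the study's thresholds (0.00906% of all genes), and in none did the arrays of the conditions fail to overlap (2.29% of all genes). Differences ran from −0.51 for HDAC10 to 0.24 for SIRT1 on the log2 scale.

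DMSO addition, D30 + DMSO against D30 − DMSO at the same day, had 5 of 31 members called by the wider rule (16.1%, against 18.5% of all genes). SIRT7, KAT2B, SIRT4 and HDAC3 rose, as 8.42% of all genes did, and HDAC11 fell, as 10.1% did. None passed the study's thresholds, as 5.9% of all genes did. Deacetylases and acetyltransferases had the same median log2 difference, 0.13, beside 0.04 over all genes; 3 deacetylases rose and 1 fell, and 1 acetyltransferase rose. Only slides 3 and 4 held both conditions; the differences within them were 0.68 and 1.03 for KAT2B, 0.59 and 0.82 for SIRT7, 0.52 and 0.84 for HDAC3, 0.71 and 0.94 for SIRT4 and −0.36 and −0.84 for HDAC11. By the methods' t-test 4 members were called, against 17.4% of all genes: KAT2B and HDAC11 of the 5, with HAT1 and the near-background NCOA2 added.

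KAT2B had the clearest separation. It was at 0.00, 0.04, −0.04 and −0.32 in the D30 − DMSO arrays, at 0.70, 0.67, 0.74 and 0.67 in the D30 + DMSO arrays, and at 0.18, −0.01, 0.20 and −0.25 in the D34 ± DMSO arrays. The D30 + DMSO arrays stood within a narrow band above all the others. KAT2B rose by 0.78 ± 0.14 with DMSO (1.71-fold, limma adjusted p = 0.00049) and fell by 0.66 ± 0.14 after its removal (1.58-fold, adjusted p = 0.0016). KAT2A, its close paralogue, differed by 0.08 with DMSO (95% interval −0.54 to 0.70) and was called in no comparison.

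SIRT7, a nucleolar sirtuin tied to ribosomal RNA genes, was at −0.30, −0.27, −0.20 and 0.15 without DMSO, at 0.34, 0.25, 0.67 and 1.27 with it, and at −0.30, 0.15, −0.61 and 0.07 after removal. It rose by 0.79 ± 0.21 (limma adjusted p = 0.0124) and then fell by 0.80 ± 0.21 (adjusted p = 0.00923). A second SIRT7 probe gave 0.76 and −0.74. The D30 + DMSO arrays were uneven, with replicate 4 far above the others, but did not overlap those of either other condition. Both calls ended under the methods' t-test, and the second also with only the 8 arrays compared.

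HDAC3, the catalytic subunit of the NCOR and SMRT complexes, was at 2.66, 2.65, 2.57 and 2.07 without DMSO, at 3.10, 3.26, 3.00 and 2.83 with it, and at 2.47, 2.34, 2.76 and 2.32 after removal. It rose by 0.56 ± 0.18 (limma adjusted p = 0.0343) and then fell by 0.57 ± 0.18 (adjusted p = 0.0254). The rise was 0.42 (adjusted p = 0.123) without D30 − DMSO replicate 4, and the call was also lost without D30 − DMSO replicate 3 (adjusted p = 0.0549) and without D30 + DMSO replicate 1 (0.0735), 2 (0.105) or 3 (0.0624), with no filter on dim probes (0.0563), with only the 8 arrays compared (0.0537) and under the methods' t-test. With slide as a block it was 0.60 (adjusted p = 0.0027). NCOR1, a corepressor that binds and activates HDAC3, differed by 0.10 with DMSO and by −0.08 after removal and was called in no comparison.

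SIRT4 was at −2.13, −1.85, −1.81 and −2.17 without DMSO, at −1.80, −1.05, −1.24 and −1.23 with it, and at −1.42, −1.93, −1.55 and −2.67 after removal. The rise of 0.66 ± 0.22 was barely called (limma adjusted p = 0.0453) and lost its call in 17 of 32 alternatives, among them leaving out any D30 − DMSO replicate (0.60 to 0.72) or D30 + DMSO replicate 2, 3 or 4 (0.57 to 0.63). HDAC11 was at −1.53, −1.44, −1.39 and −1.07 without DMSO and at −1.89, −1.90, −2.10 and −1.72 with it. It fell by 0.54 ± 0.14 (limma adjusted p = 0.00981), and 2 further probes gave −0.46 and −0.55, neither called. With normexp background correction it was −0.31 (adjusted p = 0.053) and no longer called.

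Of the members not called for DMSO, HDAC7 (−0.55), SIRT1 (0.52) and NCOA2 (0.50) had the largest differences. The NCOA2 and HAT1 arrays did not overlap between the conditions, as in 25.1% of all genes, with log2 differences of 0.50 and 0.19 and adjusted p values of 0.278 and 0.47. NCOA2 was well above background on 3 of the 4 D30 − DMSO arrays and on all 4 at D30 + DMSO. Of these conditions only the higher one let it pass the filter, and its separation is not taken as support. With slide as a block 9 members were called, against 29.6% of all genes; HDAC7 (−0.54), SIRT3 (0.34), SIRT6 (−0.30) and NCOA2 (0.81) were added.

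**Figure D3:**
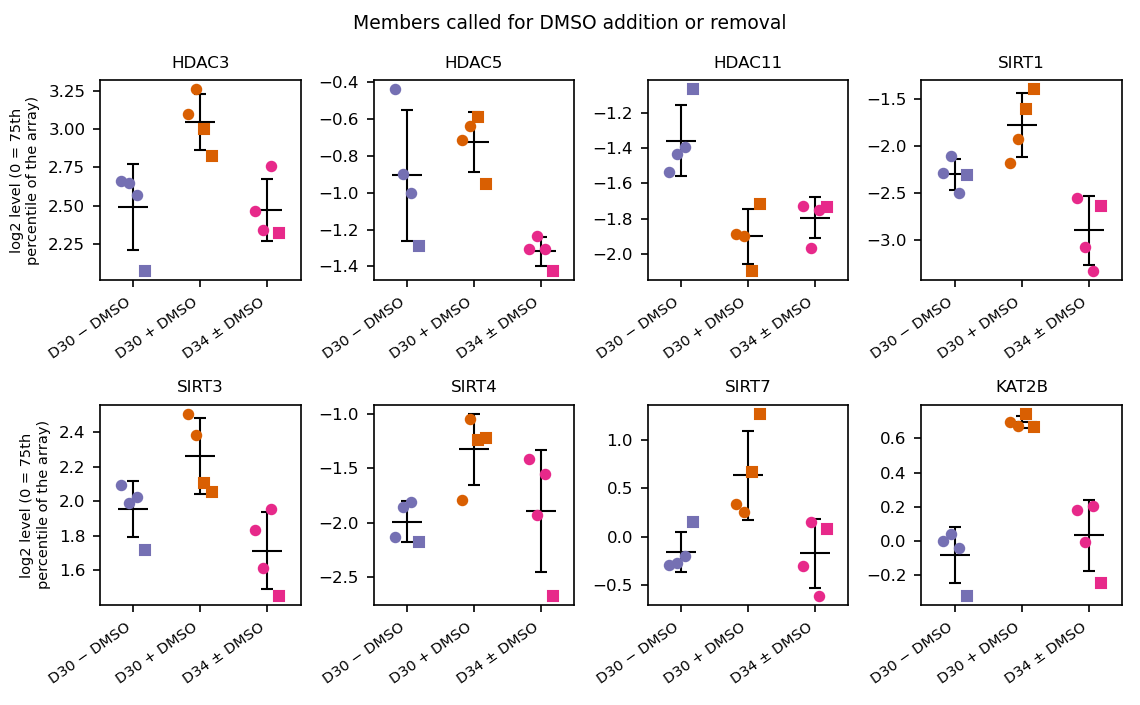
Log2 level (0 is the 75th percentile of the array) of the 8 members called for DMSO addition or removal, 1 point per array at D30 − DMSO, D30 + DMSO and D34 ± DMSO, squares for slide 4 and circles for the other slides, with mean and SD of 4 arrays; each panel has its own vertical axis. KAT2B and SIRT7 points at D30 + DMSO lie above those on both sides, and HDAC11 points at D30 + DMSO and D34 ± DMSO lie below those at D30 − DMSO.

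After DMSO removal, D34 ± DMSO against D30 + DMSO, 6 of 31 members were called by the wider rule (19.4%, against 22.1% of all genes), and all 6 were lower (11.5% of all genes were called lower and 10.7% higher). SIRT1 alone passed the study's thresholds, as 7.05% of all genes did. Of the 6, 5 were deacetylases (median of the 17, −0.05) and KAT2B was the acetyltransferase (median of the 13, −0.20), beside a median of −0.07 over all genes. This comparison and the preceding one share the 4 D30 + DMSO arrays, so a high or low array there moves both in opposite directions.

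SIRT1, the nuclear sirtuin that deacetylates histones and factors such as PGC-1α, was at −2.29, −2.11, −2.50 and −2.31 at D30 − DMSO, at −2.18, −1.93, −1.61 and −1.39 at D30 + DMSO and at −2.55, −3.08, −3.33 and −2.63 at D34 ± DMSO. The D34 ± DMSO arrays lay below all arrays of both other conditions. SIRT1 fell by 1.12 ± 0.22 after removal (2.17-fold, limma adjusted p = 0.00102), and by 0.89 and 1.13 within slides 3 and 4. The difference from D30 − DMSO was −0.60 ± 0.22 and was not called (adjusted p = 0.161). The 2-fold threshold for the removal was missed without D30 + DMSO replicate 4 (−0.99) or D34 ± DMSO replicate 3 (−0.98), and with normexp background correction, which gave −0.73.

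SIRT3 was at 2.51, 2.38, 2.11 and 2.05 with DMSO and at 1.84, 1.61, 1.96 and 1.45 after removal, and fell by 0.55 ± 0.15 (limma adjusted p = 0.0103), a call that ended with only the 8 arrays compared and under the methods' t-test. HDAC5, a class IIa deacetylase that shuttles between nucleus and cytoplasm, was at −0.72, −0.64, −0.59 and −0.95 with DMSO and at −1.31, −1.23, −1.31 and −1.43 after removal, and fell by 0.59 ± 0.19 (adjusted p = 0.0272). Within slides 3 and 4 the differences were −0.55 and −0.63 for SIRT3, −0.63 and −0.65 for HDAC5, −0.57 and −0.59 for HDAC3, −0.75 and −0.89 for SIRT7 and −0.49 and −0.95 for KAT2B. Leaving out D30 + DMSO replicate 1 or 2 or D34 ± DMSO replicate 1 or 4 ended the call of both HDAC5 (adjusted p 0.053 to 0.0664) and HDAC3 (0.0526 to 0.081), as did leaving out D30 + DMSO replicate 3 for HDAC5 (0.0787) and D34 ± DMSO replicate 2 for HDAC3 (0.0671). Of the 7 sirtuins, 3 were called after removal (42.9%, against 22.1% of all genes), and the median was −0.57, beside −0.07 over all genes. The uncalled values were −0.58 for SIRT2, −0.57 for SIRT4, −0.12 for SIRT5, whose 3 other probes gave positive values (0.29 to 0.61), and −0.05 for SIRT6.

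HAT1 was at 2.08, 2.15, 2.18 and 2.17 with DMSO and at 2.33, 2.56, 2.86 and 2.39 after removal. The arrays did not overlap, as in 23.9% of all genes, and the difference of 0.39 ± 0.15 was not called (limma adjusted p = 0.0684). Against D30 − DMSO, where HAT1 was at 1.98, 2.03, 1.91 and 1.91, it rose by 0.58 ± 0.15 (adjusted p = 0.0268), the 1 member called in that comparison (3.23%, against 4.78% of all genes, 2.68% higher and 2.1% lower). None passed the study's thresholds there (1.53% of all genes), and the arrays did not overlap in 3 members, HAT1, HDAC11 and SIRT1 (12% of all genes). That call was lost without any 1 of the D30 − DMSO replicates or D34 ± DMSO replicate 2 or 3 (0.47 to 0.60, adjusted p 0.0529 to 0.0958), and within slides 1, 3 and 4 the difference was 0.65, 0.61 and 0.48. The 10 proliferation markers all rose after removal, by a median of 2.49 on the log2 scale, and their part in the HAT1 difference was not tested. HDAC2, the other member that fell with them between D4 and D15, differed by −0.04 after removal (95% interval −0.38 to 0.29).

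With slide as a block 9 members were called for the removal, against 31.9% of all genes, with SIRT2 (−0.44), SIRT4 (−0.64) and HAT1 (0.39) added. After removal HDAC11 was at −1.73, −1.97, −1.75 and −1.73, a difference of 0.10 from D30 + DMSO and of −0.44 from D30 − DMSO (limma adjusted p = 0.089, and 0.022 with slide as a block).

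**Figure D4:**
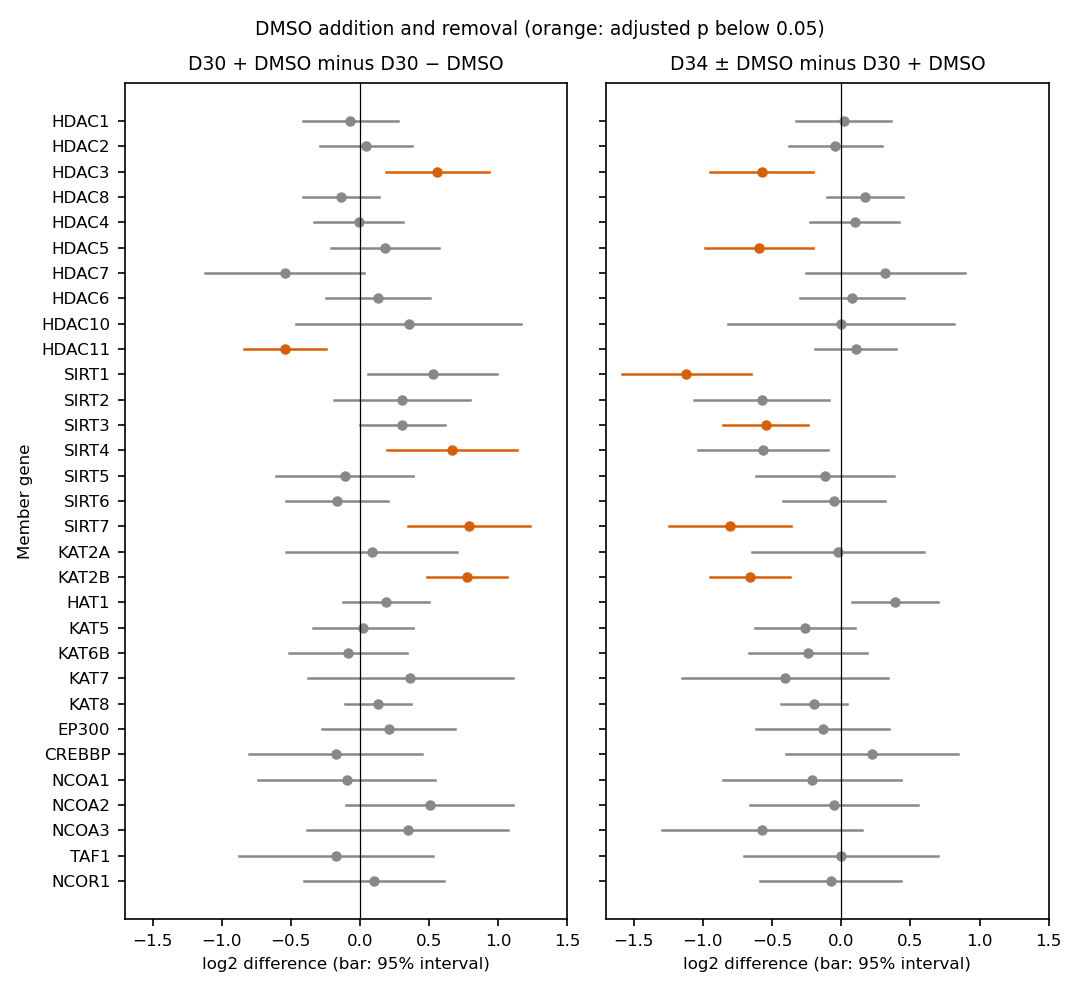
Log2 difference with its 95% interval for the 31 tested members, with DMSO addition on the left and DMSO removal on the right; orange marks an adjusted p below 0.05 in limma, and both panels share the 4 D30 + DMSO arrays. Addition has 4 orange points above 0 and 1 below, and removal has 6 below 0.

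Of the other members, HDAC1, which pairs with HDAC2 in the same complexes, differed by −0.30 between D4 and D15 (95% interval −0.64 to 0.04) and by −0.07 and 0.02 with DMSO and after its removal. HDAC8, a class I enzyme that works outside these complexes, and HDAC4, of class IIa, differed by at most 0.17 in size in any comparison on their brightest probes. The 3 other HDAC8 probes had the opposite sign to it in both DMSO comparisons, with none called: 0.33, 0.18 and 0.27 with DMSO against −0.14, and −0.30, −0.07 and −0.66 after removal against 0.17. HDAC7, also of class IIa, had a mean of −0.39 at D4 and −1.54 at D30 + DMSO, and none of the 5 comparisons called it. HDAC10, a polyamine deacetylase, varied widely between arrays, from −2.17 to −3.63 at D15 alone.

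The acetyltransferases most often named as general coactivators were called in no comparison. EP300 differed by 0.18, −0.01, 0.21, −0.13 and 0.07 in the 5 comparisons in the order above, ending with D34 ± DMSO against D30 − DMSO, and none was called. CREBBP differed by 0.46 between D4 and D15, but its D15 arrays ran from −1.30 to 0.64 with replicate 1 far above the rest. The steroid receptor coactivators NCOA1 to NCOA3, KAT5, KAT6B and KAT7 of the MYST family and TAF1, a subunit of the general factor TFIID, were likewise not called in this fit. Their intervals were wide, 95% −0.41 to 0.85 for CREBBP and −1.15 to 0.35 for KAT7 at DMSO removal.

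Probes of the same gene did not always tell the same story. Several probes represented 13 members. For SIRT5, a mitochondrial enzyme that removes succinyl and malonyl groups, the brightest probe gave −0.11 with DMSO (limma adjusted p = 0.838), while A_33_P3764802, at nearly the same brightness, gave −0.66 (0.0089) and A_33_P3271755 gave −0.76 (0.042) in a fit of all 26351 probes. All 4 SIRT5 probes had positive differences between D4 and D15, from 0.49 to 0.54, and A_33_P3764802 was called there (adjusted p = 0.0249). After removal the brightest probe gave −0.12 and the others 0.61 (A_23_P307955), 0.29 (A_33_P3271755) and 0.31 (A_33_P3764802), none called.

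**Figure D5:**
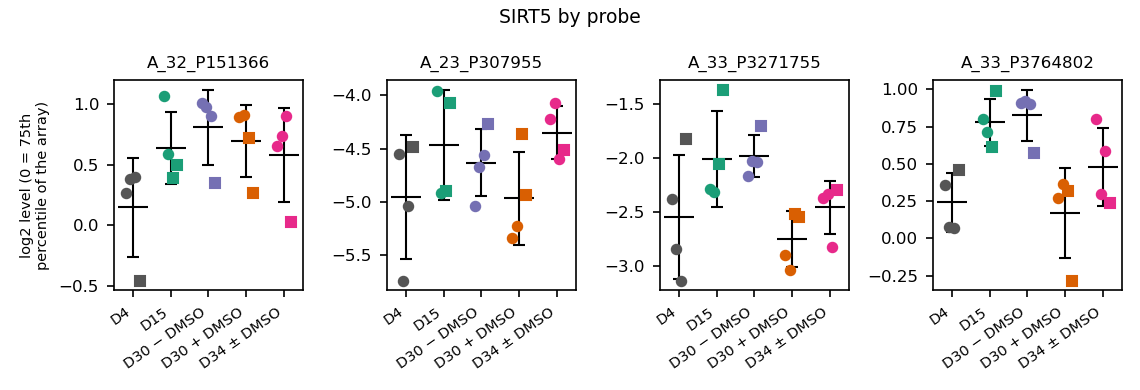
Log2 level (0 is the 75th percentile of the array) of the 4 SIRT5 probes in the 5 conditions, 1 point per array, squares for slide 4 and circles for the other slides, with mean and SD of 4 arrays; each panel has its own vertical axis. The 2 probes A_33_P3271755 and A_33_P3764802 dropped with DMSO, and A_32_P151366 did not separate the conditions.

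A dim second HDAC2 probe was well above background on all 4 arrays only at D34 ± DMSO, and on 2 at D30 + DMSO. Kept through D34 ± DMSO alone, it gave 0.78 after removal, where the main probe gave −0.04, and no p-value is given. A second, dim HDAC4 probe rose by 0.53 at that step (limma adjusted p = 0.0436), against 0.10 for the main one. Its reference sequence is a non-coding transcript, not an mRNA. Its mean was −4.73 at D30 + DMSO, with 3 of the 4 arrays well above background, and −4.20 at D34 ± DMSO, with all 4. A second NCOA1 probe gave 0.49 between D4 and D15 (adjusted p = 0.0481). A second NCOA2 probe stood clear of background on all 4 D15 arrays and on 0 of the 4 D4 arrays. It was at least 1.50-fold higher at D15. The bound takes, for each D4 array, the higher of the probe's own signal and the lowest signal well above background. Only D15 had this probe well above background on all 4 arrays. It was thus kept through D15 alone, and no p-value is given.

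The partners of these enzymes were taken from lists of subunits, substrates and readers. The lists were drawn up with earlier results of these data known, so their shares beside those of all genes are descriptions. Of 32 tested subunits of deacetylase complexes, 1 rose and 6 fell between D4 and D15 (median −0.26), 4 rose and 4 fell with DMSO (median 0.05), and 3 rose and 3 fell after removal (median −0.07) by the wider rule. These are 21.9%, 25% and 18.8% of the list, beside 23.8%, 18.5% and 22.1% of all genes in the same comparisons. The chromatin remodeller CHD3 of NuRD fell by 1.15 with DMSO (limma adjusted p = 0.00021) and rose by 1.33 after removal (3.75e-05). ING1, a histone reader of the SIN3 complex, rose by 1.17 with DMSO (3.91e-05). Both passed the study's thresholds with DMSO, as no member enzyme did. Of 45 tested subunits of acetyltransferase complexes, 0 passed the study's thresholds in any comparison; by the wider rule 4 fell between D4 and D15, 2 rose and 1 fell with DMSO, and 2 rose and 7 fell after removal, or 8.89%, 6.67% and 20% of the list against the same shares of all genes.

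Of 10 tested readers of acetyl-lysine, the bromodomain proteins BRD3 and BRD2 passed the study's thresholds in both DMSO comparisons. BRD3 rose by 1.35 with DMSO (limma adjusted p = 0.000192) and fell by 1.32 after removal (0.000197). BRD2 rose by 1.08 (1.23e-05) and fell by 1.11 (6.81e-06). By the wider rule 3 readers rose and 1 fell with DMSO, and 3 fell after removal (40% and 30%, against 18.5% and 22.1% of all genes). None of the 10 passed the study's thresholds between D4 and D15, where 1 fell by the wider rule (10%, against 23.8% of all genes).

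Of 8 tested genes of acetyl-CoA supply 5 rose and none fell between D4 and D15 by the wider rule (62.5%, against 23.8% of all genes; median 0.78). ACOT12, a cytosolic acetyl-CoA hydrolase, rose by 4.68 (limma adjusted p = 1.95e-08). It was well above background on 1 of the 4 D4 arrays, so the size of its rise rests mostly on dim D4 signals. ACSS1, the mitochondrial acetyl-CoA synthetase, rose by 2.94 (limma adjusted p = 0.000354). With DMSO 2 of the 8 rose and 2 fell (50%, against 18.5% of all genes; median −0.06). ACSS2, the nuclear and cytosolic acetyl-CoA synthetase, rose by 1.40 (0.000121), while ACSS1 fell by 1.82 (0.0208) and CS, the mitochondrial citrate synthase, by 0.75 (0.000211). After removal 2 fell and none rose (25%, against 22.1%), ACSS2 by 1.17 (0.000529). Of 9 tested genes of NAD supply 4 rose and none fell between D4 and D15 (44.4%, against 23.8% of all genes; median 0.42). NAMPT and NAPRT, the first enzymes of NAD synthesis from nicotinamide and from nicotinic acid, rose by 1.42 (0.00159) and 1.28 (2.74e-05). NNMT, which methylates nicotinamide, fell by 1.12 with DMSO (0.00325) and rose by 1.06 after removal (0.00427).

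Of 6 tested genes known to be induced by deacetylase inhibitors, 2 rose and none fell with DMSO by the wider rule. That was 33.3%, against 18.5% of all genes, with a median of 0.60. The same 2 fell after removal (33.3%, against 22.1%, median −0.59). The list was drawn up with earlier results of these data known. DHRS2, SAT1 and TXNIP were picked for mention after their values were seen. Whether DMSO acts like a deacetylase inhibitor was not tested. DHRS2, a short-chain dehydrogenase, rose by 3.18 with DMSO (limma adjusted p = 1.3e-05) and fell by 2.17 after removal (0.000479). SAT1, the spermidine acetyltransferase, rose by 0.90 (7.74e-05) and fell by 1.21 (2.24e-06). Between D4 and D15 DHRS2 fell by 1.43 (0.0113), while TXNIP rose by 1.13 (0.00714) and SAT1 by 0.61 (0.0019), 3 of the 6 in all (50%, against 23.8% of all genes).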

How the data were processed

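The 33 members and the lists of partners were chosen with earlier results of these data known. The authors scanned 20 one-colour arrays with Agilent Feature Extraction (version 10.7.3.1 per the labels, 10.7.1.1 per the file headers) and deposited background-subtracted signals as intensity and, separately, a table of log2 values, used here as an alternative. Each signal was scaled to a common 75th percentile, floored at 1 and put on the log2 scale. Outlier spots were left out and spots of a probe averaged. Of 42405 probes, 24826 were named through their accession in RefSeq's gene table. A probe was kept where some condition had it well above background on each of its 4 arrays (26351 probes), and each of 22069 genes was represented by its brightest probe (mean over arrays); other probes are described where a member's call or direction changed most. limma 3.58.1 (R 4.3.3) fitted 5 condition means to all arrays, replacing the t-test of the methods, and p-values were adjusted over all genes (Benjamini-Hochberg). All members were named; of the partner lists, the genes past the study's thresholds, at most 5 per list and comparison, with ACSS1, CS, SAT1, TXNIP and DHRS2, chosen after their values were seen, also given where only the wider rule called them. Array number, signal above background and slide limit the precision; slide was no term of this fit. Alternatives covered normalization, background correction, the deposited table, floor, dim-probe filter, every probe, slide, scan session and replicate number as blocks, the arrays fitted, the methods' t-test and leaving out each array. The code was tested on simulated data.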

Additional observations from a re-analysis of the deposited data

Results flagged for a closer look

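In each condition the 4 arrays of each tested member were checked for 1 array standing apart, by the gap to its nearest neighbour as a share of the whole range (Dixon's 95% limit). This was so in 13 of 155 sets, where chance flags about 1 in 20, and 7 of the 13 arrays were replicate 4, all on slide 4. On the log2 scale, HDAC3 was low in replicate 4 at D4 (2.21, nearest 2.81) and at D30 − DMSO (2.07, nearest 2.57), the latter within the DMSO comparison for HDAC3. At D30 − DMSO replicate 4 also had NCOR1 at 0.66 (nearest 1.51) and SIRT6 at −0.01 (nearest −0.54). Replicate 4 had SIRT5 at −0.46 at D4, HDAC10 at −2.66 at D30 + DMSO and HDAC1 at 2.44 at D34 ± DMSO. Outside slide 4, HAT1 was at 1.54 in D15 replicate 1 (nearest 2.11), SIRT7 at −0.10 in D15 replicate 2, HDAC11 at −2.05 in D4 replicate 2 and at −1.97 in D34 ± DMSO replicate 2, SIRT1 at −2.55 in D4 replicate 3, and KAT6B at −4.62 in D34 ± DMSO replicate 3.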

How the results depend on the processing

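The 20 called differences kept their direction in all 640 values from 32 alternatives, and 58 of these values missed the threshold. Many of these values could not change sign. The methods' t-test, the fit of only the 8 arrays compared, the replicate block and leaving out an array of another condition kept the same difference. Their shared direction carries no weight. The calls of 8 differences held throughout. They were HDAC2, HDAC6, SIRT3, SIRT4 and HAT1 between D4 and D15, KAT2B with DMSO, and KAT2B and SIRT1 after removal. Of the 155 differences, 119 were never called, and 66 of those changed sign under at least 1 alternative, each from a log2 difference within 0.351 of 0; 16 were called under an alternative only. In what follows, brackets give the share or number of all genes called. Between D4 and D15 the wider rule called 13 members with slide as a block (36.2%). With only the 8 arrays compared it called 5 (18.5%), against 8 (23.8%) in the main fit. With DMSO the members called numbered 9 with slide as a block (29.6%) and 3 with no filter on dim probes (10.6%), against 5 (18.5%). Between D34 ± DMSO and D30 − DMSO they numbered 2 with slide (10.4%), scan session (9.18%) or replicate number (8.88%) as a block. They numbered 0 with only the 8 arrays compared (2.91%) and by the methods' t-test (3.13%), against 1 (4.78%). By the study's thresholds, 1 member was called between D4 and D15 with normexp (1397 of the 22069 genes) and by the methods' t-test (1108), against 2 (2105). After removal 0 were called under quantile normalization (1478), normexp (857), only the 8 arrays compared (1075) and the methods' t-test (499), against 1 (1555). Leaving out 1 array gave 3 to 5 members with DMSO by the wider rule (14.5 to 19.6%). Between D34 ± DMSO and D30 − DMSO it gave 0 to 1 (3.47 to 5.29%). By the study's thresholds it gave 0 to 1 after removal (1325 to 1591 genes). For the methods' t-test the wider rule gave 7, 4 and 4 members for D15, DMSO addition and removal after Benjamini-Hochberg (17.5%, 17.4% and 16.5%). Same-numbered replicates correlated above 0.1 in 27 of 40 pairs. On different slides their median was 0.0663 (9 of 22 pairs above 0.1), against −0.229 for other-numbered pairs (18 of 94). Whether equal numbers mark the same culture series was not stated, and the main fit had no replicate term. With replicate number as a block 10, 6, 8 and 2 members were called in these comparisons in the same order, D34 ± DMSO against D30 − DMSO last. Of all genes, 32.5%, 26.9%, 31.1% and 8.88% were called. The causes of these shifts were not tested.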
